A study of Mus musculus with 12 samples.

Results

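The Hes and Hey effectors of Notch signalling examined here are 8 genes, Hes1, Hes5, Hes6, Hey1, Hey2, Heyl, Nrarp and Rbpj, chosen by name and read from the 53090 gene rows of each library. Each symbol matched 1 row, and all 8 passed the filter on low counts that left 18638 tested genes. They were measured in RNA recovered from mouse retina by immunoprecipitation of ribosomes that carry an HA epitope tag. The P9 group holds 6 libraries from retinas taken on postnatal day 9, and the P3 group 6 libraries from postnatal day 3. All 12 came from C57BL/6 mice injected with tamoxifen on postnatal days 1 and 2, so the interval from tamoxifen to harvest was longer at P9 and cannot be told apart from age. The cell type label is retinal pericytes, the mural cells of capillaries. Neither the tagged allele, nor its driver, nor the number of mice per library is given in the sources used here. The design text sets out to find mural cell signatures at both ages while retinal vessels grow.

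Notch receptors are cut when a ligand on a neighbouring cell binds them, and the freed intracellular domain joins RBPJ on DNA and turns on a small set of genes. Best known among these are the Hes and Hey genes, which encode basic helix-loop-helix repressors, and Nrarp, whose ankyrin-repeat protein dampens the same signal. In the developing retina Hes1 and Hes5 hold progenitors and Müller glia back from neuronal fate, Hes6 accompanies neurogenesis and opposes HES1, and in vessels Heyl and its relatives act downstream of Notch in mural and endothelial cells.

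Of the 8 genes, 6 fell and 1 rose at P9, and for 1 the adjusted p was above 0.05 in edgeR's quasi-likelihood test across all tested genes. The share of all tested genes called at this threshold was 51.8% in either direction, with 25.6% lower and 26.1% higher at P9. The median log2 fold change of the 8 was -0.80, beside -0.0018 over all tested genes. Values of the ages did not overlap for 4 of the 8, against 31.7% of all tested genes. The 3 Hes genes and Rbpj were those without overlap. The same 1 rise and 6 falls were counted without P3 replicates 4 and 5 and without P9 replicates 5 and 6. P3 replicates 4 and 5 had the highest mean pericyte and Müller glia marker levels of their age and the lowest Hes1 and Hes6. They also had the highest summed neurogenic precursor, rod and astrocyte markers of P3. Without both libraries the log2 fold changes of Hes1 and Heyl were -1.16 and 0.74.

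Promoter sequence was found for 5 of the 8 genes in the RefSeq table of build GRCm38.p6, which mm10 also denotes, as windows of 300 bases from 250 before to 50 after an annotated start. Hes1, Hey1 and Heyl had no entry. The word GTGGGAA, a high-affinity form of the RBPJ site, its core TGGGAA, which GTGGGAA contains, and the bHLH words CACGTG and CACGCG were searched on both strands. The windows below show which of these words stand near annotated starts of these genes, with every match in capitals. A match on the other strand reads TTCCCAC in full or TTCCCA for the core.

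Hes5, chr4:154960673-154960972, plus strand: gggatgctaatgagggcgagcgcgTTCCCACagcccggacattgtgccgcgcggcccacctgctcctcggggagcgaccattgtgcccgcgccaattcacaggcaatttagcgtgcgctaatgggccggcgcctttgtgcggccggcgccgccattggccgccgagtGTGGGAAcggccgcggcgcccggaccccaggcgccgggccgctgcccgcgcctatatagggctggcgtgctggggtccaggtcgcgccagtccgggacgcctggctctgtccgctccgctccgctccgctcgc
Hey2, chr10:30842734-30843033, minus strand: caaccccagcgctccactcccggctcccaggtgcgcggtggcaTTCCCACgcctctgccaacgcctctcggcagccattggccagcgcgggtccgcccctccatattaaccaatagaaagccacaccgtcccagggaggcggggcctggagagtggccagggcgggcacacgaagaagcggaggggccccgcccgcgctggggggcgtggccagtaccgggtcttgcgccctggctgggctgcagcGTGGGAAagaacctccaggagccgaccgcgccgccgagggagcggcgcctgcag
Rbpj, upstream start, chr5:53590096-53590395, plus strand: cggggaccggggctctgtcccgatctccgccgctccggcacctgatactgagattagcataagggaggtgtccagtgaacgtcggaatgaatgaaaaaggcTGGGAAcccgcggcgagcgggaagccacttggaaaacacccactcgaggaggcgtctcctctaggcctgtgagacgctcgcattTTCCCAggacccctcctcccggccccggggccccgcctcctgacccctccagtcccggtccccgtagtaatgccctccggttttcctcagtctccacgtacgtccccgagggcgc
Nrarp, chr2:25180508-25180807, plus strand: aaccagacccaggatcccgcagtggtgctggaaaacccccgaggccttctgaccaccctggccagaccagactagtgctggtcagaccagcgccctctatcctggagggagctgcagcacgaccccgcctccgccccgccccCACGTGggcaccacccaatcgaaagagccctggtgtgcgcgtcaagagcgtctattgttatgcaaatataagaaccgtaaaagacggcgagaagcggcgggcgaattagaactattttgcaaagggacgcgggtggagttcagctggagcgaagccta
Hes6, downstream start, chr1:91413173-91413472, minus strand: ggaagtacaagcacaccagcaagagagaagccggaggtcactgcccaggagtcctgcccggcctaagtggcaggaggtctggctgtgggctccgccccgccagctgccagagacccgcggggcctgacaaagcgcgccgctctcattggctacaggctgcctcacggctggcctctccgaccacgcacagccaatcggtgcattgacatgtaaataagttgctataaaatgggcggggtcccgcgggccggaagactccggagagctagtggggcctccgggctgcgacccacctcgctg

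Hes5 and Hey2 each held GTGGGAA once on each strand, beginning 226 and 83 bases before the start in Hes5 and 207 and 4 bases before it in Hey2. This word was present in 6.38% of 32851 RefSeq windows of the same length, and at least 2 matches stood in 0.256% of them. Hes5 fell at P9 and Hey2 did not pass the test. Whether these words bear on the changes was not tested, and 3 of the 8 genes had no window. The Rbpj window held the core TGGGAA 149 and 65 bases before its start, and a downstream Rbpj start held it 205 bases before. This core stood in 25.6% of all windows. For Rbpj, upstream and downstream order only the 2 starts that had a window. Both lie inside the Rbpj gene span, which begins at 53555779, and no window covered that beginning. The whole Hes5 window likewise lies inside the Hes5 gene span, which begins at 154960626. The Nrarp window held CACGTG 108 bases before its start, a word found in 7.15% of windows. Neither of the 2 annotated Hes6 starts held the RBPJ core or either bHLH word. CACGCG, in 9.27% of all windows, was in none of the 7 windows of the 5 genes. The N-box form CACNAG, not in capitals above, stood in 42.5% of all windows, and among these 7 in the Nrarp window and the downstream Hes6 window.

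Hes6 and Hes5 fell most. Hes6 (ENSMUSG00000067071.8, chromosome 1, 91411483 to 91414038), the family member that opposes HES1 and promotes neuronal differentiation, had a lowest, median and highest level of 31.4, 48.4 and 70.9 CPM (expected counts scaled to library size by the TMM method) over the 6 P9 libraries. At P3 these were 243, 323 and 374 CPM. The ages were far apart, and P9 replicate 3 was the highest of its age. The mean was 47.7 ± 13.8 CPM at P9 and 313 ± 57.2 CPM at P3 (SD, n = 6 per age), 6.56-fold lower at P9 (log2 fold change -2.71 ± 0.19, SE; adjusted p = 5.31e-08 by edgeR).

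Hes5 (ENSMUSG00000048001.7, chromosome 4, 154960626 to 154962372), a direct Notch target of neural progenitors, ran at 4.86, 7.89 and 11.5 CPM (lowest, median and highest) at P9 and at 36.5, 51.5 and 61.3 CPM at P3. No P9 library came near the P3 range. The mean of 8.10 ± 2.24 CPM at P9 was 16.4% of the 49.6 ± 10.3 CPM at P3 (log2 fold change -2.61 ± 0.19, SE; adjusted p = 9.38e-08). At P9 it rested on 187 to 434 reads per library, the fewest at the low end among the 8 genes. Its expected counts were fractional in all 12 libraries, which means that RSEM divided some of its reads with transcripts of other genes.

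Hes1 (ENSMUSG00000022528.7, chromosome 16, 30065357 to 30067796), the Hes repressor shared by progenitors, glia and many other cells, fell less. Its P9 libraries had 11.7, 14.9 and 17.3 CPM (lowest, median and highest), against 22.7, 29.9 and 36.0 CPM at P3. All P9 libraries lay under all P3 libraries, and the lowest P3 values were those of replicates 4 and 5. The change was 2.02-fold downward (log2 fold change -1.02 ± 0.14, SE; adjusted p = 2.66e-05). Hes1 and Hes6 kept a nearly fixed proportion among the P3 libraries. The log2 ratio of Hes1 to Hes6 averaged -1.69 ± 0.48 at P9 and -3.43 ± 0.059 at P3 (SD, n = 6 per age).

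**Figure D1:**
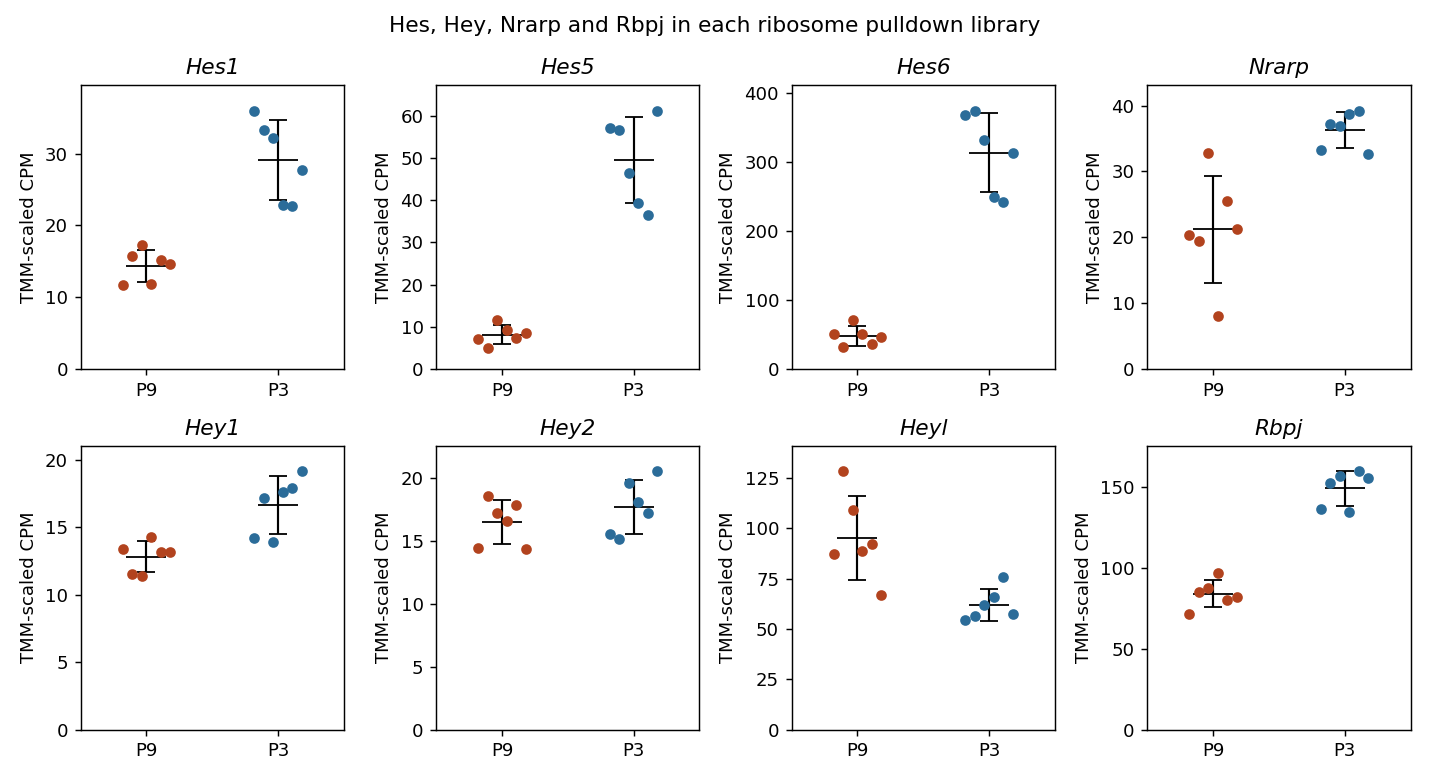
TMM-scaled CPM of each gene in every library, P9 left and P3 right in each panel. Points are libraries and bars the mean ± SD over 6 libraries. The ages are separate for Hes1, Hes5, Hes6 and Rbpj and overlap for Nrarp, Hey1, Hey2 and Heyl.

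Among the Hey genes 1 rose, 1 fell and 1 did not pass. Heyl (ENSMUSG00000032744.4, chromosome 4, 123233556 to 123249870), the Hey factor known from vascular mural cells, was the 1 gene that rose. It had 67.0, 90.6 and 128 CPM (lowest, median and highest) at P9 and 54.3, 59.5 and 75.9 CPM at P3. P9 replicate 6 lay within the P3 range, and the other P9 libraries lay above it. The mean was 95.4 ± 20.9 CPM at P9 and 61.9 ± 8.04 CPM at P3, 1.54-fold higher at P9 (log2 fold change 0.62 ± 0.13, SE; adjusted p = 0.00119).

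Hey1 (ENSMUSG00000040289.8, chromosome 3, 8663359 to 8667038), a Hey repressor of endothelial and neural cells, had 11.4, 13.2 and 14.3 CPM at P9 and 13.9, 17.4 and 19.1 CPM at P3 (lowest, median and highest). The ranges overlapped at their edges. The fall was small, with a log2 fold change of -0.38 ± 0.11 (SE; adjusted p = 0.00826). Hey2 (ENSMUSG00000019789.9, chromosome 10, 30832359 to 30842783), known from arterial endothelium and heart, had 14.4, 16.9 and 18.6 CPM at P9 and 15.1, 17.7 and 20.5 CPM at P3. It was the gene that did not pass (log2 fold change -0.10 ± 0.11, SE; adjusted p = 0.455). The 95% interval of its log2 fold change ran from -0.33 to 0.13, which bounds the change these libraries leave possible at that level.

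Among the remaining genes, Rbpj (ENSMUSG00000039191.12, chromosome 5, 53555779 to 53657445), the DNA-binding partner through which all Notch receptors act on transcription, fell 1.78-fold. It had 71.6, 83.5 and 96.7 CPM at P9 and 135, 154 and 159 CPM at P3 (lowest, median and highest), with no overlap. The spread within an age was small, with a coefficient of variation of 9.96% at P9 and 7.20% at P3, and the adjusted p was 8.27e-07. Its expected counts were fractional in all 12 libraries.

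Nrarp (ENSMUSG00000078202.3, chromosome 2, 25180758 to 25183339), the feedback inhibitor that in retinal vessels is known from endothelial stalk cells, had 7.98, 20.8 and 32.7 CPM at P9 and 32.6, 37.1 and 39.2 CPM at P3 (lowest, median and highest). P9 replicate 4 was the lowest and P9 replicate 3, the highest of its age, just reached the P3 range. The coefficient of variation was 38.3% at P9 and 7.67% at P3. Expected counts of Nrarp were fractional in 9 of 12 libraries, P9 replicate 4 among them. The log2 fold change was -0.77 ± 0.22 (SE; adjusted p = 0.00949). Without P9 replicate 4 it was -0.60, still called with an adjusted p of 0.00155, and over 23 alternatives the adjusted p ran from 0.000911 to 0.0336.

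Ordered from the rise to the deepest fall, the genes were Heyl, Hey2, Hey1, Nrarp, Rbpj, Hes1, Hes5 and Hes6. Whether neighbours in that order changed by different amounts was tested with the log2 ratio of the genes within a library, which does not depend on scaling, by an exact two-sided permutation test over 924 assignments adjusted over all 28 pairs. Of 7 neighbouring pairs, 2 passed. Hey2 relative to Heyl was lower at P9 by a log2 ratio of -0.70 ± 0.13 (SE), and Hes1 relative to Hes5 was higher by 1.62 ± 0.21 (exact adjusted p = 0.00357 for each). The unadjusted p of 0.00216 behind both is the smallest that this test can give.

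The other 5 neighbouring pairs did not pass. The difference was -0.27 ± 0.14 for Hey1 relative to Hey2 (exact adjusted p = 0.0870) and 0.52 ± 0.33 for Hey1 relative to Nrarp (exact adjusted p = 0.129). It was -0.052 ± 0.32 for Nrarp relative to Rbpj, -0.17 ± 0.16 for Hes1 relative to Rbpj and 0.12 ± 0.10 for Hes5 relative to Hes6 (exact adjusted p of 0.955, 0.336 and 0.327). Hey1 relative to Hey2 passed without P3 replicate 3 (exact adjusted p = 0.0275), and Hey1 relative to Nrarp without P9 replicate 3 (exact adjusted p = 0.00826). Of all 28 pairs 22 passed; of these, Hes1 relative to Hey1 (-0.64 ± 0.23, exact adjusted p = 0.0303) lost its call in 7 of 12 tests that each left out 1 library. The rise of Heyl differed from the change of each other gene in that test, as did the fall of Hes5 and of Hes6 from each gene outside that pair.

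**Figure D2:**
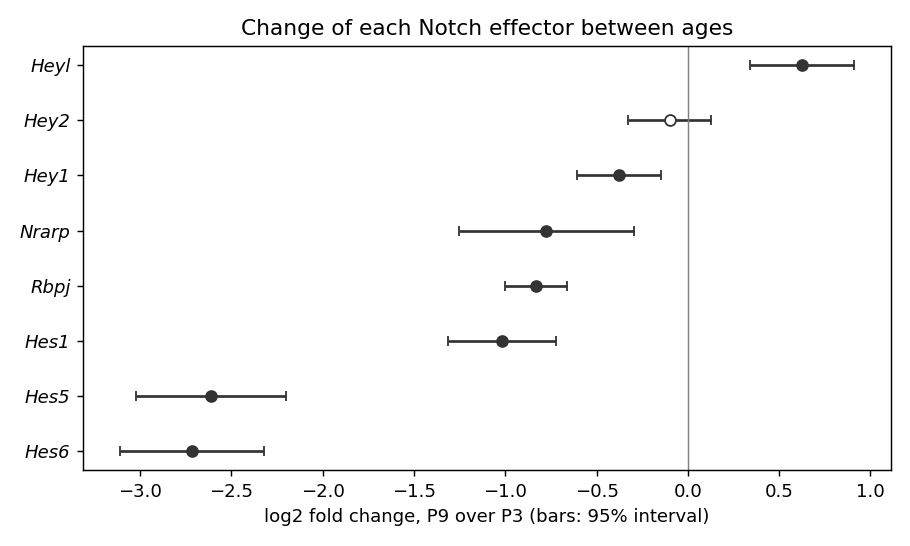
Log2 fold change, P9 over P3, of each gene with its 95% interval from the edgeR fit, filled where the gene was called. Heyl at 0.62 lies to the right of 0, Hey2 at -0.10 spans it, and Hes5 and Hes6 at -2.61 and -2.71 lie farthest left.

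Markers of several cell types moved in the same libraries. The labelled cell type was present by its defining markers, with Pdgfrb at 698 ± 209 CPM at P9 and 116 ± 56.2 CPM at P3. Among 20 pericyte markers 17 rose and 0 fell, and their summed level was 2913 to 6468 CPM at P9 and 420 to 1412 CPM at P3. Of 13 retinal progenitor markers 12 fell and 1 rose; the sum was 1075 to 1312 CPM at P9 and 1748 to 2299 CPM at P3. Of 12 neurogenic precursor markers 10 fell and 0 rose, with sums of 896 to 1188 CPM at P9 and 1487 to 2278 CPM at P3. Müller glia markers rose in 8 of 14 cases and fell in 2, with sums of 2004 to 2740 CPM at P9 and 1441 to 2038 CPM at P3. Endothelial markers rose in 8 of 17 tested cases and fell in 1; their sum, 751 to 872 CPM at P9 and 931 to 1059 CPM at P3, was lower at P9, whereas the mean of their log2 CPM was higher by 1.16. The endothelial marker that fell was Kdr, at 603 ± 30.7 CPM at P9 and 926 ± 79.5 CPM at P3. It made up most of the endothelial sum at both ages. No marker with a row was at 0 in all libraries. Fewer cells of a type and less RNA per cell cannot be told apart in such bulk libraries, and the part of these cells in the changes of the Notch effectors was not tested.

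Rod markers summed to 7593 to 15819 CPM at P9, above the pericyte sum of that age, and to 1292 to 2860 CPM at P3. Lens markers summed to 3252 to 8660 CPM at P3, above the pericyte sum of that age, and to 74.0 to 893 CPM at P9. Lists hold different genes, so such sums do not give the share of a cell type. The sums of the other lists moved as follows. At P9 rod markers were 5.99-fold, bipolar 1.99-fold, ganglion cell 1.68-fold, cone 1.56-fold, microglia 1.34-fold, astrocyte 1.31-fold, smooth muscle 2.98-fold and erythroid 11.5-fold higher, amacrine 1.15-fold and lens 36.1-fold lower, each past an adjusted p of 0.05 by the exact permutation test, and horizontal cell markers did not pass (exact adjusted p = 0.829). A sum follows the most abundant markers of a list, and the mean of log2 CPM, which weights markers equally, moved more for several lists. For bipolar markers the P9 minus P3 difference was 3.98 by that mean and 0.99 by the sum, on the log2 scale. By the mean and by the sum it was 3.27 and 2.58 for rod, 1.61 and 0.64 for cone and 1.14 and 0.45 for Müller glia markers. It was -1.58 and -0.74 for progenitor and -1.57 and -0.81 for neurogenic precursor markers, and 0.59 and -0.027 for horizontal cell markers, which passed by the mean (exact adjusted p = 0.00577).

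Set against the pericyte markers, every one of the 8 genes was lower at P9. The mean log2 level of that list itself rose by 2.17, so a gene without change would be lower by about as much. How many of all tested genes were lower against it was not computed. Heyl, although it rose, fell behind the pericyte markers. Its log2 level minus the mean log2 level of the 20 pericyte markers was 0.996 ± 0.071 at P9 and 2.56 ± 0.52 at P3 (SD, n = 6 per age), a difference of -1.57 (exact two-sided permutation test, adjusted over 40 gene and list pairs, adjusted p = 0.00271). The P9 libraries were close together and the P3 libraries spread. Hey2 and Hey1 differed by -2.27 and -2.54 on the same scale, Rbpj, Nrarp and Hes1 by -3.00, -3.06 and -3.18, and Hes5 and Hes6 by -4.80 and -4.91, each with the same adjusted p.

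Set against the retinal progenitor markers, whose mean log2 level fell by 1.58, the genes divided by direction. A gene without change would be higher against them by about as much. Hes5 and Hes6 fell further than the mean of those 13 markers, by -1.05 and -1.16 on the log2 scale (exact permutation, adjusted p = 0.00271 for each). Hes1, at 0.57, and Rbpj, at 0.75, fell less than that mean, each with the same adjusted p, and Nrarp was at 0.69 (exact adjusted p = 0.0178). With the median of the list in place of its mean, the values of Hes1, Nrarp and Rbpj were 0.060, 0.18 and 0.23 and did not pass (exact adjusted p of 0.768, 0.481 and 0.154). Hey1, Hey2 and Heyl stood at 1.21, 1.48 and 2.18 (exact adjusted p = 0.00271 for each).

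Against the neurogenic precursor markers the values were close to these, with -1.06 for Hes5, -1.17 for Hes6 and 2.17 for Heyl. The call of Hes5 there was lost with the median of the list (-0.34, exact adjusted p = 0.132). Neurog2 and Atoh7, proneural factors on that list, fell 3.81-fold and 8.45-fold at P9 (edgeR adjusted p of 5.55e-07 and 5.17e-06). Against the endothelial and Müller glia markers all 8 genes were lower at P9 and passed, apart from Heyl against the endothelial list. Heyl there was at -0.56 (exact adjusted p = 0.132) and passed without P3 replicate 1 (-0.80, exact adjusted p = 0.0117). The means of these lists rose by 1.16 and 1.14, so a gene without change would be lower by about as much. Hey2, which was not called, was at -1.26 and -1.24. How many of all tested genes were lower against these lists was not computed. Heyl against the Müller glia list was -0.54 (exact adjusted p = 0.0178) and did not pass with the median of the list (-0.043, exact adjusted p = 0.868).

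**Figure D3:**
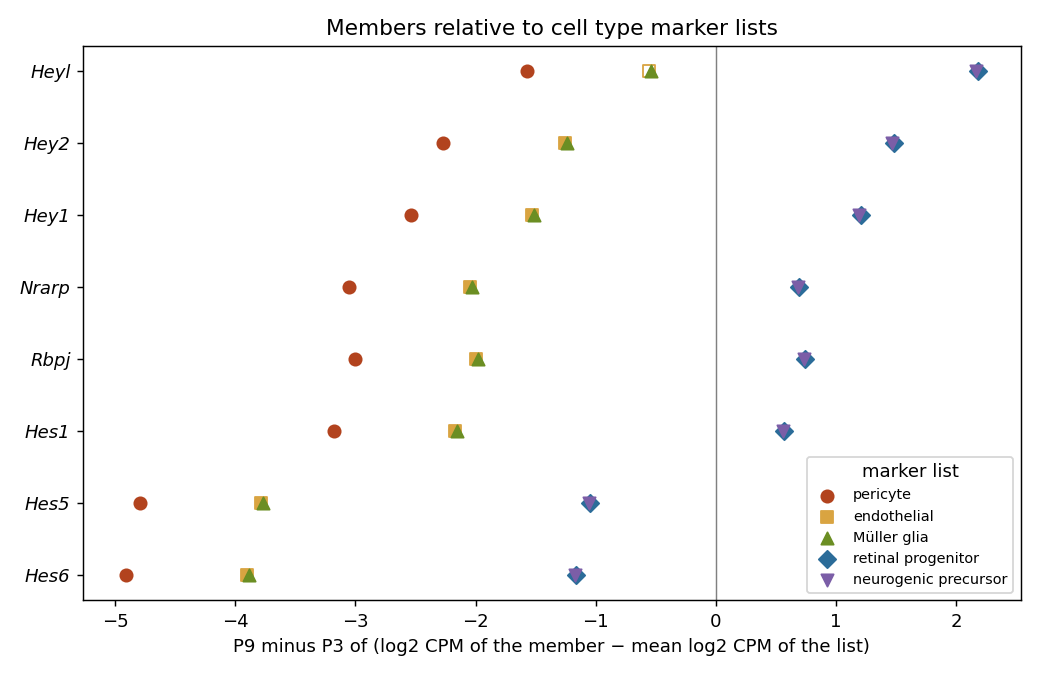
P9 minus P3 difference of each gene's log2 CPM after the mean log2 CPM of a marker list was subtracted in each library, with symbols for the 5 lists and filled symbols where the adjusted p of the exact test was under 0.05. Every gene lies left of 0 against the pericyte list, whose own mean rose by 2.17. Hes5 and Hes6 at -1.05 and -1.16 also lie left of 0 against the progenitor list, where Heyl stands at 2.18.

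Within an age, Heyl went with the pericyte markers at P9. Across the 6 P9 libraries its log2 level and the mean of those markers had a Pearson r of 0.976 (exact permutation p = 0.00694, adjusted p = 0.194) and a Spearman rho of 1 (exact permutation p = 0.00278, adjusted p = 0.111). Without the 2 libraries farthest from the median of the list r was 0.849. Across the 6 P3 libraries r was 0.599 (exact permutation p = 0.206, adjusted p = 0.659) and rho 0.429 (exact permutation p = 0.419, adjusted p = 0.796), with r at 0.919 without the 2 farthest. At P3 Heyl and the Müller glia markers had r of 0.914 (exact permutation p = 0.00972, adjusted p = 0.194). There rho was 0.886 (exact permutation p = 0.0333, adjusted p = 0.444), and r was 0.863 without the 2 farthest. At P9 Heyl and the Müller glia markers had r of -0.277 (exact permutation p = 0.604, adjusted p = 0.833). Hes6 ran against the Müller glia markers at P3, with r of -0.966 (exact permutation p = 0.00139, adjusted p = 0.111), rho of -1 (exact permutation p = 0.00278, adjusted p = 0.111) and r of -0.949 without the 2 farthest. At P9 that r was -0.785 (exact permutation p = 0.0667, adjusted p = 0.515). Of 80 such relations, 8 genes with 5 lists in each age, 7 had an unadjusted p under 0.05 for r. Among these were also Hey2 with the pericyte markers at P9 (r of 0.893) and with the neurogenic precursor markers at P3 (0.860). The others were Hes1 with the Müller glia markers at P3 (-0.932) and Hes6 with the neurogenic precursor markers at P9 (0.802). After adjustment 0 passed for r or rho. The smallest p that 6 libraries allow is 0.00139, so a single relation at that limit adjusts to 0.111 over 80, and no lone relation could pass.

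**Figure D4:**
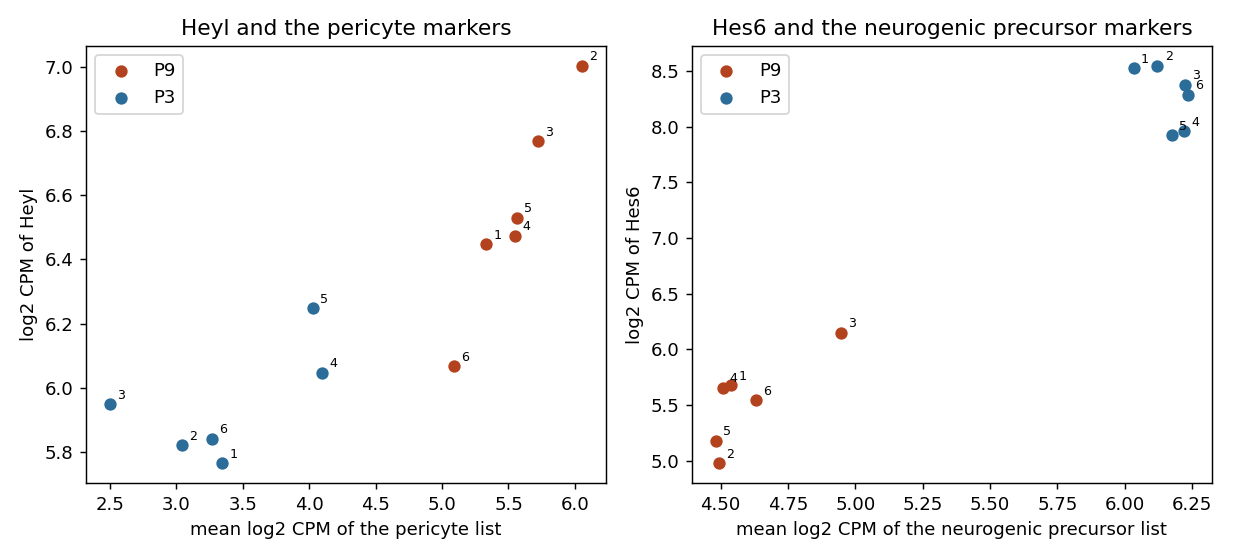
Log2 CPM of Heyl against the mean log2 CPM of the pericyte list (left) and of Hes6 against that of the neurogenic precursor list (right), with each point a library marked by its replicate number. At P9 Heyl follows the order of the pericyte markers, and for Hes6 the ages form separate groups on both axes.

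The genes most alike to each effector were taken as the 3 with the highest Pearson r over the 12 libraries after the mean of each age was removed, among 10389 candidates whose mean reached 10 CPM. High values are built into such a choice, and libraries share depth and composition across genes, so they are given as a description. For Heyl they were Gab1, an adaptor of receptor tyrosine kinases (0.954), Mcam, an adhesion molecule on the pericyte list (0.948), and Pde5a, the cGMP phosphodiesterase of vascular muscle (0.943). For Hes1 they were Ighmbp2 (0.942), Cyp26a1, which degrades retinoic acid (0.898), and Cyp4f17 (0.896). Hes6 was nearest to Atp13a1, Dctn2 and Ppp2r3d (0.939, 0.934 and 0.926), and Hes5 to Coq6, Ing4 and Necab3 (0.894, 0.884 and 0.881). Hey1 was nearest to Sdhaf2, Traf2 and Jrkl (0.947, 0.883 and 0.874), Hey2 to Zfp266, Vps35 and the deacetylase gene Hdac2 (0.917, 0.895 and 0.893) and Rbpj to Grip1, Myo7a and Nat8f4 (0.930, 0.926 and 0.889). Nrarp had the lowest best value, 0.885 with Hmces, which was 0.976 within P9 and 0.056 within P3, and then Mrpl23-ps1 and Mrpl10 (0.835 and 0.826).

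The rest of the Notch pathway and 6 related bHLH genes, 66 genes chosen by function or protein class, held more falls than rises. Among the 62 that were tested there were 31 falls, 11 rises and 20 genes that did not pass, beside 25.6% lower and 26.1% higher among all tested genes, and their median log2 fold change was -0.24. Receptors divided evenly, with 2 of 4 lower and 2 higher. Notch1, the main receptor of retinal progenitors, fell 5.25-fold to 136 ± 30.8 CPM at P9, against 713 ± 74.0 CPM at P3. Notch3, the receptor of mural cells, had 141 ± 42.4 CPM at P9 and 49.7 ± 16.7 CPM at P3, 2.84-fold higher at P9. Among 8 ligands and ligand-like genes 3 rose, 3 fell and 2 did not pass. Dll1, a ligand of neurogenic cells, fell 6.69-fold and Jag1, a ligand of vessels, rose 1.48-fold (edgeR adjusted p of 1.40e-08 and 2.19e-05). Dll4, another ligand of vessels (named after its values were seen), fell 5.75-fold (edgeR adjusted p = 1.15e-06).

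Genes that modify or cut the receptors were lower or did not pass, apart from Aph1b. Of 5 glycosylation genes 4 fell, led by Lfng, the fringe glycosyltransferase (4.07-fold). Of 9 cleavage genes 2 fell, 1 rose and 6 did not pass; the gamma-secretase subunit genes Ncstn and Aph1b fell 1.57-fold and rose 1.73-fold (edgeR adjusted p of 1.60e-05 and 0.000146).

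In the nucleus, where RBPJ trades corepressors for coactivators, 8 of 12 tested corepressor genes fell and 1 rose. Tle3, a Groucho corepressor that Hes proteins recruit, was 2.22-fold lower, with 69.2 ± 7.89 CPM at P9 and 154 ± 15.0 CPM at P3, and its relative Tle2 rose 1.34-fold. Of 7 coactivator genes 2 fell and 1 rose. The acetyltransferase genes Kat2a and Kat2b changed by log2 fold changes of -0.43 and 0.16 (edgeR adjusted p of 0.000151 and 0.0441).

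Of 14 genes of Notch endocytosis and turnover 9 fell and 1 rose. Dtx4, a Deltex ubiquitin ligase, was 1.93-fold lower and Neurl1a, a Neuralized ubiquitin ligase, 2.11-fold higher at P9. Among 6 related genes of the same bHLH class outside the 8, 3 passed the filter. Bhlhe41, a clock-linked repressor, had 44.2 ± 10.5 CPM at P9 and 9.74 ± 2.50 CPM at P3, 4.53-fold higher at P9, and the other that rose was Bhlhe40 (named after its values were seen). Hes2 stayed under 1 CPM in both means, with 0.191 ± 0.181 CPM at P9 and 0.856 ± 0.441 CPM at P3, and fell (edgeR adjusted p = 0.0279).

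Library totals ran from 26839600 to 37776170 expected counts, and 1 CPM stood for 25.8 to 38.5 reads. The number of reads behind the 8 genes in a library was between 187 for Hes5 and 4941 for Heyl at P9 and between 358 for Hey1 and 11166 for Hes6 at P3. The correlation of log2 CPM between libraries was 0.960 to 0.974 within P9, 0.952 to 0.97 within P3 and 0.882 to 0.945 between ages. Since no label ties a library to its own animal, the p-values speak only of the spread among these 12 libraries, and part of that spread may be technical.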

How the data were processed

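The authors deposited RSEM expected counts for each gene of a library, per the file headers, without scaling to depth, and 15.9% of the values are fractional. The submitters' processing notes name mm10 and the tools RSEM, STAR, limma, Trim Galore and FastQC. Their versions, their roles and the gene annotation used: not given in the sources used here. Per the labels' protocols, libraries were stranded mRNA libraries made after HA immunoprecipitation.

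Groups came from the age label. Replicates were numbered in deposition order and pair nothing. The file names of P9 replicates 5 and 6 are crossed with their titles; both are P9.

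Expected counts were rounded. Genes were filtered with filterByExpr (18638 tested, 34452 removed), scaled by TMM and tested in edgeR 4.0.16 (R 4.3.3) by quasi-likelihood. P-values were adjusted by Benjamini and Hochberg's method across these genes, with calls at 0.05. Log2 fold changes divide P9 by P3, and an SE is the absolute change over the square root of F. Log2 CPM used a prior count of 2. Of repeated symbols the most abundant row was used. Exact permutation tests compared log2 ratios and summed CPM of 16 marker lists. The fit was tested on simulated counts.

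All 8 genes are named. Other pathway genes were named by the smallest adjusted p per list and direction, with Notch3. Markers came from the first 3 of a list. Bhlhe40 and Dll4 were named after their values were seen. The members, lists and tests were chosen with earlier results of these data known. Alternatives were other scalings, filters and thresholds, DESeq2 1.42.0, limma-voom (limma 3.58.1), a robust fit, libraries left out, a prior count of 0.5 and list medians. Levels were not compared between genes because no transcript lengths were used. Some items are not reported here.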

Additional observations from a re-analysis of the deposited data

How the results depend on the processing

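Across 23 alternatives to the fit, each of the 8 genes kept its direction and its side of the threshold, and the counts of 6 falls and 1 rise did not change. Leaving out each library gave 1 rise and 6 falls among the 8 genes. Among other Notch pathway genes, counted with the related bHLH genes, it gave 10 to 11 rises and 28 to 32 falls. Over all genes it gave 4515 to 5052 rises and 4421 to 4747 falls. No scaling moved the median of all genes by over 0.1. Leaving out each library moved Nrarp relative to Rbpj between -0.19 and 0.25, turning its direction without P9 replicate 4; Hes1 relative to Hey1, which passed with all libraries (exact adjusted p = 0.0303), ran from -0.73 to -0.53 and lost its call in 7 of 12. With the mean log2 CPM in place of the sum, the difference turned for endothelial (1.16), amacrine (0.012) and horizontal cell markers (0.59), and the astrocyte call was lost. The endothelial sum was mostly Kdr, the 1 marker of that list that fell. The causes of the other differences were not tested. The sizes of several other list sums also moved, as given with the marker lists. Hes5 rested on the fewest reads at P9, 187 to 434 per library. No paired analysis was possible because replicate numbers here follow deposition order.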

Other observations

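The 8 genes differed in how tightly libraries of an age lay together. At P9 the coefficient of variation was 8.82% for Hey1, 9.96% for Rbpj and 10.7% for Hey2, and 27.7% for Hes5, 29.0% for Hes6 and 38.3% for Nrarp. At P3 Nrarp, at 7.67%, was among the least variable of the 8, with Rbpj at 7.20%. None of the 16 sets of 6 libraries held a value standing apart by Dixon's criterion at the 95% level. The low Nrarp value of P9 replicate 4 was separated from the next by 0.463 of its age's range.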
